A study of Populus tomentosa with 4 samples.

Results

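The 68 loci described here are heat shock and chaperone genes of poplar that were listed as predicted microRNA targets. They were taken by their Swiss-Prot description, which had to contain "heat shock", "heat stress", "chaperon" or "dnaJ", and they made up 0.660% of the 10305 distinct loci in the authors' deposited table. The 2 loci of the copper chaperone for superoxide dismutase also contain such a word and were left out. The study sequenced small RNA of 2 tissues of Populus tomentosa, the Chinese white poplar: shoot tips, named SAM (shoot apical meristem) in the labels, and the leaves around them. There were 2 libraries of SAM and 2 of leaf, from healthy tissue of trees aged 20 years under natural conditions, and the comparison asks which microRNAs differ between the tissues. Both tissues came from the same kind of tree, and no heat treatment, genotype or control plant is named in the labels. A shoot tip holds the meristem together with the young tissue around it. Messenger RNA was not measured, so neither the tissue labels nor the levels of the 68 loci themselves could be examined, and every value below is that of a microRNA.

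Heat shock proteins and other chaperones keep proteins folded. Heat stress transcription factors switch on their genes, small heat shock proteins hold unfolding proteins in solution, Hsp70 refolds them with the help of J-domain (DnaJ) partners, Hsp90 matures signalling proteins, and ClpB pulls aggregates apart. Chaperonins fold proteins in a closed chamber, and BAG proteins regulate Hsp70. A microRNA directs the cutting or the translational block of transcripts that it pairs with, in plants usually along nearly its whole length.

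The authors' deposited table gave each microRNA 1 normalized abundance per tissue, a log2 fold change of SAM over leaf and an FDR (an adjusted p-value); it listed only microRNAs with an FDR below 0.05. The number of microRNAs tested by the authors is not given, and the labels leave unsaid if a tissue's libraries are from different trees, so the FDR may measure technical spread alone. All 34 SAM and 17 leaf signals under 15 could be written as sums of whole multiples of 2 steps, taken as 1 step per library, and with these steps the reads of both libraries were recovered for 46 of the 49 sequences concerned in SAM and for 43 in leaf. Library values below are those reads on the authors' scale, with the pooled value taken as the mean of both libraries; the pair is always given in the same order of libraries, although which replicate each library is remains unknown. If the values are scaled to 1000000 reads, the libraries held 1270332 and 1050682 reads in SAM and 1133180 and 752959 reads in leaf. Intervals given with a fold are exact 95% intervals and cover counting error only. Folds given as "at least", for microRNAs with 0 reads in a tissue, leave out the counting error of the other tissue and are no 95% bounds. In bulk tissue, fewer cells that hold a microRNA and less of it per cell cannot be told apart.

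Of the 68 loci, 22 were predicted for a microRNA that was higher in SAM and 49 for one that was lower, with 3 in both sets. The share with a higher microRNA was 32.4%, beside 44.1% of all predicted loci, and the share with a lower one was 72.1%, beside 67%. Loci in both sets were 4.41% of the 68 and 11.1% of all loci. Loci with lower microRNAs alone were 67.6% of the 68 and 55.9% of all loci. The imbalance was uneven between classes. All 5 heat stress transcription factors, all 7 small heat shock proteins and 7 of 8 loci classed as Hsp70 had only microRNAs that were lower in SAM. The 7 small heat shock proteins rested on 3 families or numbered microRNAs. ClpB was the class of more than 2 loci with most on the other side, with 5 of 8 loci under microRNAs higher in SAM, and the 29 J-domain proteins were mixed, with 12 and 20. These are counts of predictions that share microRNAs, and no test was made of them. They also depend on scale: scaled to the sum of the listed microRNAs without the very abundant miR159 and miR319, every log2 fold change was 2.17 higher, and 8 sequences called lower (miR171l-5p, miR396c, miR396f, miR396g-5p, miR403a, miR475b-3p, miR482c-3p and m1403-5p) became higher in SAM. With miR159 and miR319 taken out of an assumed total of 1000000 instead, the shift was 0.70 and 0 of the 49 sequences turned.

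**Figure D1:**
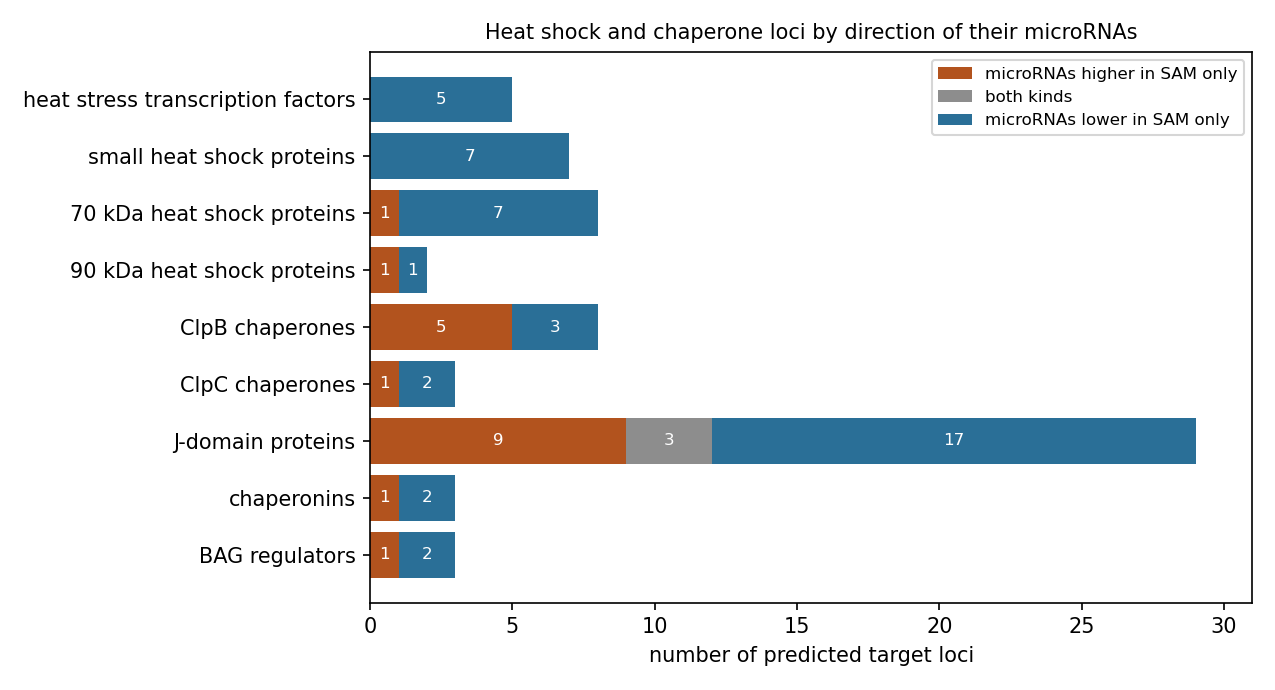
Bars give the number of heat shock and chaperone loci in each class (horizontal axis), coloured by whether all microRNAs predicted for a locus were higher in SAM, all were lower, or both kinds occurred. The 5 heat stress transcription factors and 7 small heat shock proteins have no part higher in SAM, while ClpB loci have 5 of 8.

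Some of the microRNAs of these loci are printed here 5′ to 3′, so that related sequences can be seen side by side. Not all with several loci are shown, as m1403-5p, with 3, is left out. MiR1444a, miR394b-3p and m1831-5p, with 1 locus each, are included. Capitals mark the seed, bases 2 to 8, and letters are U or T as in the table. The first 10 were lower in SAM.
miR398b: uGUGUUCUcaggucgccccug
miR398a: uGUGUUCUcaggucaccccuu
miR6421-5p: uCCCUUACaaucuacucuuuc
miR530b: uGCAUUUGcaccugcaucuu
miR473a-5p: aCUCUCCCucaaggcuucca
miR6457b: uUAGUUUGgcagccucuucuc
miR482c-3p: uCUUUCCGaguccucccauacc
miR1444a: uCCACAUUcggucaauguuc
miR397a: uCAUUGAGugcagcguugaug
m0773-5p: cTTCCATTttgggtactgta
The next 8 were higher in SAM.
miR1446b: uUCUGAACucucucccucaa
miR6459b: uCUCAAGCccaaauucgauc
miR6459a-3p: uCGAAUUUgggcuugagauug
miR394b-3p: cUGUUGGUcucucuuuguaa
m0713-3p: aTTGACCCggggctggaaccaggc
m0911-3p: aTTCTCATgtgggctagttaagtg
m1702-3p: tGGATCTGgtagccatgtcaaacc
m1831-5p: tGGATCTGgcagtcatgtcaaacc
Both miR398 sequences share a seed and differ at 2 positions, and m1702-3p and m1831-5p do the same. MiR6459a-3p and miR6459b are complementary to each other over a run of 18 bases and have the same SAM reads, so they are not independent. Families were set by name, which counts these 2 as 1 family.

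The 5 loci of heat stress transcription factors were predicted for 5 microRNA families, each of them lower in SAM on the authors' scale, with miR482c-3p and miR403a turned by the scaling to the listed sum. These factors bind heat shock promoters; class A members activate, and class B members lack that activation motif. Of 3 loci described as A-6b, which in Arabidopsis takes part in abscisic acid responses, POPTR_0002s04900 and POPTR_0005s23640 rested on miR482c-3p alone, of a family known for disease resistance genes as targets. Library values of miR482c-3p were 2042 and 2100 in SAM and 4032 and 5647 in leaf, or 2.34-fold lower in SAM (95% counting interval 2.26 to 2.42), with a log2 fold change of -1.22 and an FDR of 0.000551 in the authors' deposited table. The third A-6b locus, POPTR_0010s09210, had miR1444a, of the poplar family that targets polyphenol oxidases, with 2.36 and 5.71 in SAM (3 and 6 reads) against 346 and 442 in leaf. That is a far wider gap than for miR482c-3p, 97.6-fold lower in SAM (51.2 to 214), with a log2 fold change of -6.55 and an FDR of 9.4e-26 in the authors' deposited table. The B-3 locus, POPTR_0006s04770, rested on miR473a-5p, with 7.08 and 11.4 in SAM against 82.1 and 135 in leaf. The B-2a locus, POPTR_0012s13430, was the one factor with 2 families, miR530b and miR403a. MiR403a, from a family with an Argonaute gene as its known target, stood at 117 and 286 in SAM and 417 and 563 in leaf, 2.44-fold lower in SAM (2.18 to 2.74), with an FDR of 0.0199 in the authors' deposited table.

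All 7 loci of small heat shock proteins had microRNAs lower in SAM, and 4 of them rested on miR398, a family best known for copper/zinc superoxide dismutases as targets. The 2 sequences of that family divided these loci evenly. MiR398b, predicted for 2 of the 3 loci described as 18.5 kDa class I (POPTR_0004s19890 and POPTR_1310s00200), had 55.9 and 99.0 in SAM, against a pooled 19224 in leaf that was too high for its reads to be recovered. The authors' deposited table gave it a log2 fold change of -7.93 and an FDR of 1.05e-115. MiR398a, predicted for the third 18.5 kDa locus (POPTR_0010s20300) and the 17.8 kDa class I locus (POPTR_0001s24560), had 0 and 6.66 in SAM (0 and 7 reads) against 423 and 460 in leaf. By the ratio of its pooled values, miR398a was 132-fold lower in SAM (64.0 to 330), and all 7 of its SAM reads came from 1 library. The authors' deposited table gave it a smaller change, a log2 fold change of -6.15, with an FDR of 0.00156. The 3 organelle members depended on numbered microRNAs with few reads. M0773-5p, predicted for the 23.6 kDa mitochondrial locus (POPTR_0003s10860) and the chloroplast locus (POPTR_0003s07360), had 0 reads in both SAM libraries and 5 and 12 reads in leaf, at 4.41 and 15.9. Set against the value of 3 reads over the SAM libraries, it was at least 7.13-fold lower in SAM. M0791-3p, predicted for the 22 kDa mitochondrial locus (POPTR_0006s03310), had 2 and 0 reads in SAM against 49 and 29 in leaf, a ratio of 51.9 with an interval of 13.9 to 436.

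The 8 loci classed as Hsp70 by their description drew on 8 microRNA families or numbered microRNAs, 1 of them higher in SAM. Whether each of these loci is the refolding chaperone itself was not tested. Both stromal Hsp70 loci of the chloroplast (POPTR_0004s23310 and POPTR_0022s00530) were predicted for miR6421-5p. MiR6421-5p had 2 reads in each SAM library, at 1.57 and 1.90, against 66.2 and 58.4 in leaf, and was 35.8-fold lower in SAM (13.6 to 134; FDR 7.71e-07 in the authors' deposited table). POPTR_0004s23310 had miR530b as well, which stood at 26.8 and 58.1 in SAM and 385 and 398 in leaf, 9.23-fold lower in SAM (7.45 to 11.6). Both leaf libraries of miR530b lay far above the higher SAM library. The loci described as Hsp70 proteins 14 and 15 (POPTR_0003s05450 and POPTR_0001s18040) shared miR397a, of a family known for laccases as targets. MiR397a had 0 reads in SAM and 54 and 41 reads in leaf, at least 35.8-fold lower in SAM, with an FDR of 3.34e-06 in the authors' deposited table. The mitochondrial Hsp70 locus (POPTR_0009s08320) was predicted for miR396a and miR396c, whose family is known for growth-regulating factors as targets. These were the most abundant of the lower microRNAs. MiR396a had a pooled 13389 in SAM and 93155 in leaf, and a log2 fold change of -2.79, in the authors' deposited table.

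Cytosolic Hsp70 and Hsp90 each had a pair of loci with the same description and microRNAs of opposite direction. One locus of heat shock cognate 70 kDa protein 2, POPTR_0010s21260, had miR1446b, a poplar microRNA with 1060 and 1707 in SAM against 240 and 371 in leaf. MiR1446b was 4.53-fold higher in SAM (4.14 to 4.97), with an FDR of 7.38e-08 in the authors' deposited table. The same mature sequence had other values under other names in the authors' deposited table, down to a log2 fold change of 1.65 for miR1446d, at a pooled 699 in SAM and 221 in leaf, against 2.17 for miR1446b. The other locus, POPTR_0008s05490, had m0129-5p and m0130-5p, which share 20 bases with an offset of 1 base and both had 0 reads in SAM. M0130-5p had 29 and 35 reads in leaf, so it was at least 25.2-fold lower in SAM, and m0129-5p had 10 and 17 reads in leaf. Of the Hsp90-type loci described as heat shock cognate protein 80, POPTR_0016s00510 had miR6459b, with 847 and 1014 in SAM against 399 and 460 in leaf (2.168-fold higher in SAM, 1.997 to 2.354). POPTR_0001s47020 had miR396c, at a pooled 38708 in SAM and 126455 in leaf in the authors' deposited table.

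ClpB, the disaggregating chaperone also known as Hsp101, had 8 loci under 6 microRNAs, 4 of them higher in SAM and 2 lower. Its 7 loci described as ClpB1 were predicted for 5 microRNAs and had 4 loci under higher and 3 under lower ones, and the mitochondrial ClpB3 locus had a higher one. POPTR_0015s06760 and POPTR_0015s06770, with neighbouring identifiers, shared m0713-3p, a 24-base sequence with 14.96 and 14.28 in SAM (19 and 15 reads) and 0 reads in leaf. Against the value of 3 reads over the leaf libraries it was at least 7.34-fold higher in SAM, and its FDR was 0.00887 in the authors' deposited table. POPTR_0001s25950 rested on miR1446b and POPTR_0008s06900 on miR6459b, both given above. On the other side, POPTR_0008s01850 and POPTR_0010s24800 shared miR6421-5p, and POPTR_0006s18960 had miR473a-5p. MiR473a-5p was 11.8-fold lower in SAM (7.48 to 19.4), and its log2 fold change was -3.51 in the authors' deposited table. The ClpB3 locus (POPTR_0006s27860) had m0088-5p, with 26.0 and 28.6 in SAM and 5.29 and 3.98 in leaf, which rests on 9 leaf reads (5.88-fold higher in SAM, 2.91 to 13.4; FDR 0.0438 in the authors' deposited table).

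ClpC is the chaperone partner of the chloroplast Clp protease, and its 3 loci had 2 microRNAs in opposite directions. POPTR_0012s10770 and POPTR_0015s11640 were predicted for miR530b. POPTR_0005s21930, described as ClpC1, was predicted for miR394b-3p, the arm opposite to the one known to target an F-box gene of the meristem. MiR394b-3p had 1138 and 1861 in SAM against 116 and 85.0 in leaf, and was 14.9-fold higher in SAM (12.9 to 17.4), the largest fold among the higher microRNAs with reads in both tissues; its log2 fold change was 3.87 and its FDR 1.18e-23 in the authors' deposited table.

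J-domain proteins, which stimulate the ATPase of Hsp70 and choose its clients, were the largest class, with 29 loci and 29 microRNA sequences. The 9 loci described as dnaJ 49 had 8 with a lower and 3 with a higher microRNA. Among them, POPTR_0002s22260, POPTR_0005s04470 and POPTR_0014s16350 all rested on miR6457b, which had 30.7 and 25.7 in SAM and 586 and 631 in leaf, 21.6-fold lower in SAM (16.8 to 28.1; FDR 1.04e-28 in the authors' deposited table). MiR408-3p and miR1444d, each predicted for 1 more dnaJ 49 locus, were abundant in leaf, with a pooled 10242 and 12557 in the authors' deposited table. Their SAM library values were 66.9 and 180 for miR408-3p and 81.9 and 180 for miR1444d. M1403-5p, predicted for POPTR_0001s13760 and POPTR_0003s16970, was the weakest call, with 7.08 and 12.4 in SAM against 30.9 and 47.8 in leaf and an FDR of 0.0493 in the authors' deposited table.

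J-domain proteins of the organelles and of the secretory pathway followed no single direction. Both mitochondrial dnaJ 1 loci (POPTR_0005s07510 and POPTR_0007s05240) had miR171l-5p, at 51.2 and 78.0 in SAM against 133 and 159 in leaf, 2.26-fold lower in SAM (1.85 to 2.79), with an FDR of 0.0448 in the authors' deposited table. Both chloroplast dnaJ 11 loci had m0070-3p, with 0 reads in SAM and 5 and 10 in leaf. Both chloroplast dnaJ 20 loci were on the other side, with m0726-3p and m1702-3p, each at 0 reads in leaf. In the endoplasmic reticulum, both loci of ERDJ3B, a partner of the lumenal Hsp70 BiP, shared m0911-3p, at 16.5 and 7.61 in SAM (21 and 8 reads) and 0 reads in leaf (at least 6.06-fold higher in SAM; FDR 0.0211 in the authors' deposited table). The P58IPK homologues of the same compartment were divided, with miR1446b for POPTR_0013s01210 and miR172b-3p for POPTR_0005s19030. MiR172b-3p, whose family targets APETALA2-type factors, had 14.2 and 42.8 in SAM against 466 and 655 in leaf, 19.7-fold lower in SAM (15.2 to 25.8).

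Loci under several microRNAs were few, and 2 J-domain loci had the most. POPTR_0018s06280, described as GRV2, which in Arabidopsis acts in endosome traffic and gravity sensing, had 4 sequences of 3 families, all lower in SAM: miR398a, miR398b, miR6421-3p and m2354-3p. MiR6421-3p, the arm opposite to miR6421-5p, had 172 and 285 in SAM against 1603 and 1557 in leaf (6.91-fold lower in SAM, 6.30 to 7.60; FDR 2.41e-14 in the authors' deposited table). The other was POPTR_0001s13760, a dnaJ 49 locus with m1403-5p (lower) and both m1702-3p and m1831-5p (higher). M1702-3p and m1831-5p each had 22 and 3 reads in SAM, at 17.3 and 2.86, and 0 reads in leaf, so 1 SAM library held most of their reads. The remaining loci with both directions were POPTR_0003s09650, another dnaJ 49 locus, with m2352-3p higher and miR408-3p lower, and POPTR_0008s19860, a DnaJ homolog 2 locus, with miR171b higher and m1472-5p lower. MiR171b, of a family that targets scarecrow-like factors of the meristem, had 404 and 641 in SAM and 58.2 and 86.3 in leaf, 7.22-fold higher in SAM (6.03 to 8.72), and m1472-5p had 0 reads in SAM and 14 and 8 reads in leaf. The chloroplast dnaJ 8 locus, POPTR_0001s03470, had miR172b-3p and m0447-3p, both lower.

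The chaperonin and BAG classes had 3 loci each. The plastid chaperonin Cpn60, which helps to fold the carbon-fixing enzyme Rubisco, had its alpha 1 locus (POPTR_0004s22340) under miR159a and m1499-3p, both higher in SAM. MiR159a, whose family targets GAMYB-type factors, was the most abundant microRNA in this set, at a pooled 317047 in SAM and 90908 in leaf, with a log2 fold change of 1.80 and an FDR of 8.26e-08 in the authors' deposited table. Its beta 2 locus (POPTR_0003s20870) had miR408-3p and m1403-5p, and its beta 4 locus (POPTR_0010s14520) had miR530b, all lower. Among regulators of the BAG family, BAG 6 (POPTR_0002s16790) had miR473a-5p and m0791-3p, both lower. BAG 8 of the chloroplast (POPTR_0017s12680) had miR398c-5p, with 0 and 1 read in SAM against 62 and 58 reads in leaf, a ratio of 138 with an interval of 24.4 to 5512. BAG 7 (POPTR_0012s14720), which in Arabidopsis resides in the endoplasmic reticulum, had miR6459a-3p, higher in SAM (FDR 0.00322 in the authors' deposited table).

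Most loci rested on a single family. Of the 68 loci, 57 (83.8%, beside 77.3% of all predicted loci) had 1 microRNA family or 1 numbered microRNA, 9 had 2 and 2 had 3. The loci drew on 40 such units, 20 known families and 20 numbered microRNAs, and 19 of these units had a single locus. M0129-5p and m0130-5p, which share a run of 20 bases, counted as 2 units, so POPTR_0008s05490 is among the 9 loci with 2. Their seeds differ, so merging by seed left them apart. The 5 units with most loci reached 23 of the 68: miR398 and miR6421 with 6 each, miR530 with 5, and miR1446 and miR6459 with 4 each. Of the 6 loci of miR398, 5 had no other family. Heat shock and chaperone loci were 2.10% of the 286 loci of miR398 and 2.99% of the 167 loci of miR530, so most predicted targets of these families lay elsewhere. Loci with the same description often shared 1 sequence: there were 11 such groups, with 23 loci, and their members are not independent. Among 15 descriptions with at least 2 loci, 7 had microRNAs of both directions, 2 had higher ones alone and 6 had lower ones alone.

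**Figure D2:**
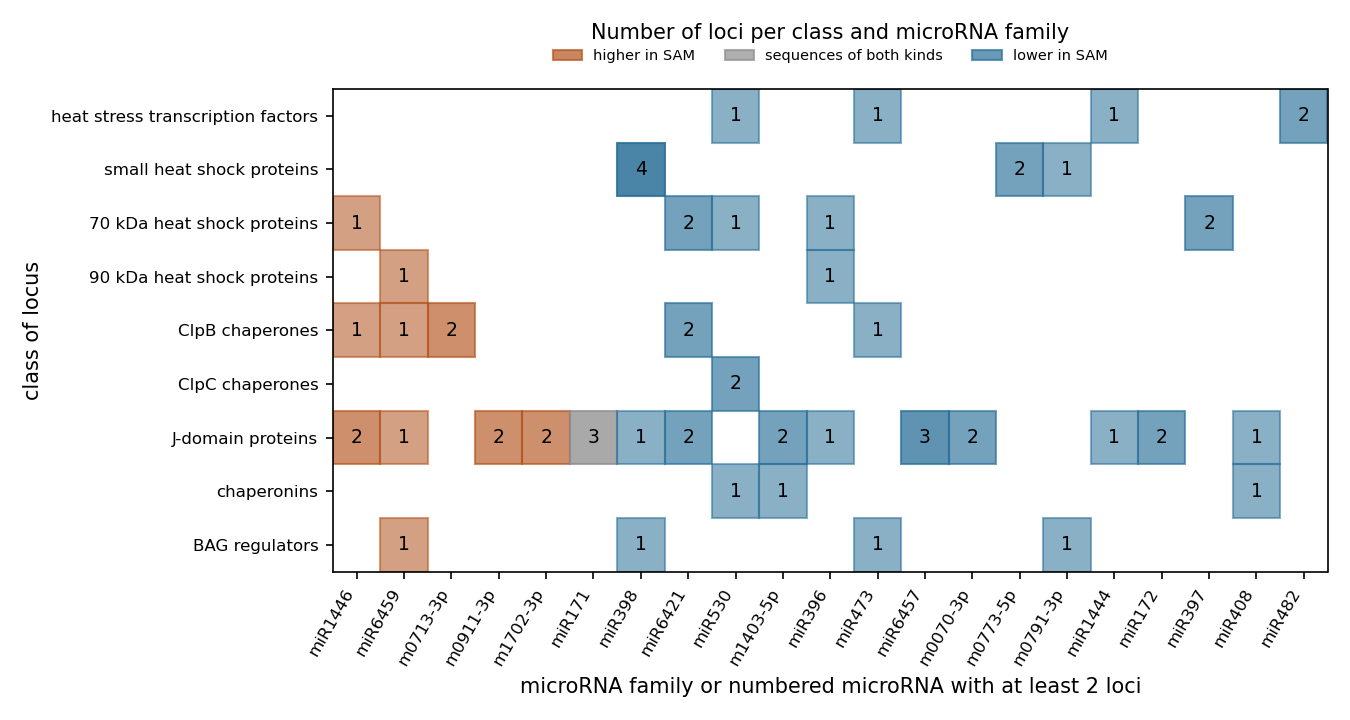
Each cell gives the number of heat shock and chaperone loci of a class (rows) predicted for a microRNA family or numbered microRNA with at least 2 such loci (columns), coloured by direction in SAM (grey for a family with sequences of both directions), with a darker shade for more loci. The small heat shock proteins show 4 loci under miR398, and the heat stress transcription factors appear in no column higher in SAM.

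The 49 sequences behind these loci comprised 16 that were higher in SAM (32.7%) and 33 that were lower, beside 42.1% higher and 57.9% lower among all 107 listed sequences. The 58 listed sequences with no heat shock or chaperone locus divided evenly, 29 and 29. Known families made up 29 of the 49, of which 7 were higher and 22 lower, beside 19 and 33 of all 52 listed known sequences. The 20 numbered ones divided into 9 and 11, beside 26 and 29 of all 55 listed. Of the higher sequences, 7 were 24 bases long, against 1 of the lower ones. Among all listed sequences, 28 were 24 bases long and 23 of these were higher, so this trait was not particular to the set. Of the 49, 7 had 0 reads in leaf and 8 had 0 reads in SAM, beside 19 and 18 of all 107. The loci supported by sequences with reads in both tissues numbered 54. In all 43 sequences whose reads were recovered in both tissues the libraries of SAM and leaf did not overlap, 15 of them higher and 28 lower in SAM. The authors' FDR had already selected these microRNAs, so this is a description and no separate support. The same count was not made for the other listed sequences, so the lack of overlap cannot be called particular to this set.

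**Figure D3:**
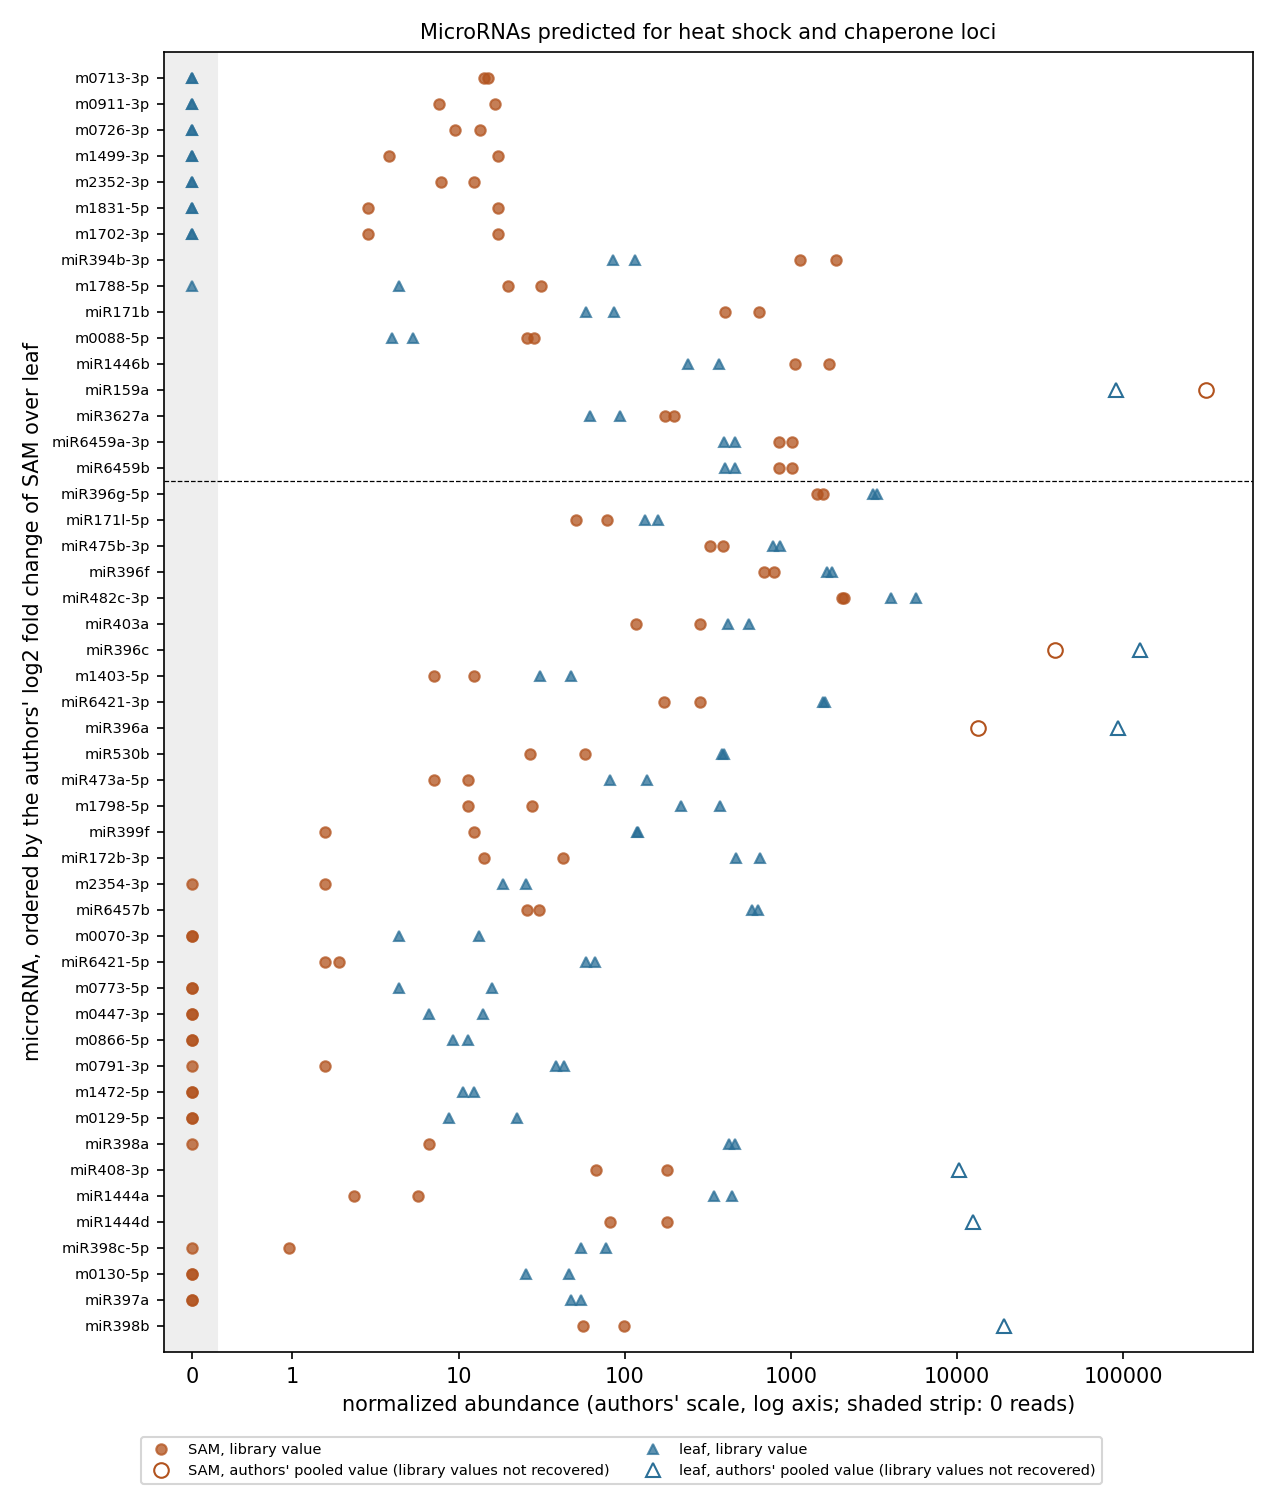
Points give the abundance (log axis, authors' scale) of the 49 microRNAs predicted for heat shock and chaperone loci, with SAM libraries as circles and leaf libraries as triangles; filled symbols are single libraries, open symbols are pooled values, and the shaded strip holds libraries with 0 reads. The 16 microRNAs above the dashed line were higher in SAM and the 33 below it were lower, and the abundances run from single reads to a pooled 317047 for miR159a in SAM.

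Pooled over all lists, other genes of folding and protein turnover had shares close to those of all predicted loci. Of these 243 loci, 172 were ubiquitin-related, so the pooled shares mainly reflect that list. Shares of the smaller lists were more spread, which was not tested. Lists of folding partners, proteases, ubiquitin and proteasome factors and heat-response genes held 243 further loci, of which 109 (44.9%) had a higher and 160 (65.8%) a lower microRNA. Peptidyl-prolyl isomerases, which turn proline bonds during folding, had 7 higher and 12 lower among 18 loci (38.9% and 66.7%). Protein disulfide isomerases had 4 and 5 among 7 (57.1% and 71.4%). FTSH proteases had 6 and 7 among 10 (60% and 70%). Ubiquitin-related loci had 80 and 107 among 172 (46.5% and 62.2%), and proteasome loci 9 and 17 among 24 (37.5% and 70.8%). Few of the stress-response genes were present: both galactinol synthases, all 4 dehydration-responsive element-binding factors and all 3 ascorbate peroxidases had a lower microRNA, and 1 of these binding factors and 2 of the peroxidases also had a higher one. Calnexin or calreticulin, the Clp protease and multiprotein-bridging factors had 1 locus each, all with a lower microRNA alone, and the Hsp70-Hsp90 organizing protein had 0. By compartment, 15 of the 68 loci were described as chloroplastic, 4 with a higher and 11 with a lower microRNA (26.7% and 73.3%, beside 38.7% and 70.7% of 652 chloroplastic loci in all), and 6 as mitochondrial, 1 and 5 (16.7% and 83.3%, beside 41.6% and 75.2% of 286 mitochondrial loci in all).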

How the data were processed

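Small RNA of 2 SAM and 2 leaf libraries was analysed from 1 table of the authors' comparison. The signal columns hold a normalized read abundance that the authors pooled to 1 value per tissue, and the log2 fold change and the FDR, an adjusted p-value, are also as deposited; how they were scaled, tested and matched to targets is not given in the sources used here. There were 27252 lines and 193 microRNA names. Names of 1 mature sequence were represented by the name with the smallest FDR. Numbered microRNAs are written without the prefix they carry in the table. Since 0 locus identifiers were found in the reference gene table, descriptions are those deposited. Coordinates, target sites and pairing were not analysed here.

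The members, classes and lists were chosen with earlier results of these data known. The table holds no value per library and no prediction score. The reads recovered for 2 libraries per tissue were used as a description, and no test across samples was run on them. Classes followed the descriptions, with heat shock cognate protein 80 placed with Hsp90, and ClpC and BAG proteins split from the other chaperones after the descriptions were seen. Named microRNAs are those with at least 2 loci and, per class, those with the smallest FDR and the largest change at a signal of at least 5; named loci are those with several families or both directions and all of classes with up to 5 loci. Other loci and microRNAs given with values were chosen after their values were seen.

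Reads were recovered by writing a pooled signal up to 5000 as whole multiples of 2 steps, searched between 0.15 and 1.5. All 34 SAM and 17 leaf signals under 15 could be written so. The coarsest steps were used, 0.394 and 0.476 in SAM and 0.441 and 0.664 in leaf; finer ones would also serve and would raise the reads. Only solutions with no rival within 10 times the tolerance for rounding were kept. Of 113 simulated SAM signals with known reads 101 were kept, and of 122 leaf signals 111 were kept. The reads were right in all kept cases, with a swapped order of libraries also counted as right. These signals were built with the steps found here, so the check could not test the choice of 2 coarsest steps. Fold intervals are exact (Clopper-Pearson), and a 0 was set to 3 reads over both libraries. Python 3.11.15, numpy 2.4.6, scipy 1.17.1, pandas 2.3.3 and matplotlib 3.10.9 were used.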

Additional observations from a re-analysis of the deposited data

How the results depend on the processing

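The main counts over 68 loci were 22 with a higher and 49 with a lower microRNA, 3 with both and 57 on 1 family. An FDR below 0.01 left 52 loci, with 13 higher, 39 lower and 0 with both. Known families alone left 50 loci, with 12, 38 and 0. Leaving out microRNAs listed at 0 in a tissue left 54 loci, with 14, 40 and 0. Numbered microRNAs alone left 25 loci, with 11 higher, 15 lower, 1 with both and 23 on 1 family. The words heat shock or heat stress alone left 22 loci, with 2 higher, 20 lower, 0 with both and 19 on 1 family. Under these words the share with a higher microRNA was smaller than over the 68 loci (32.4%) or all predicted loci (44.1%), which was not tested. Each of these settings counts fewer loci or microRNAs by construction, which lowers the counts but does not fix the shares. Adding BiP, endoplasmin, T-complex and prefoldin loci, chosen after the data were seen, gave 6 with both. Leaving out miR398 kept all 4 counts within 1.5 times, and counting sequence and locus pairs did so for the higher and lower counts. A signal minimum of 5 removed no sequence, as the lowest signal in the higher tissue was 8.85 (m0070-3p in leaf), so its unchanged counts were fixed. Merging by seed left 57 loci on 1 family. It joined only sequences of 1 family, and m1702-3p with m1831-5p, whose shared locus keeps m1403-5p as a further unit, so this count was fixed as well. Leaving out each recovered library gave 22, 49, 3 and 57 again, which the lack of overlap between libraries of the selected microRNAs fixed, and is no sign of stability. Rescaling to the listed sum without miR159 and miR319 raised every log2 fold change by 2.17 and turned 8 of 49 sequences, by the shift alone; miR171l-5p became 1.001, miR482c-3p 0.95, miR396c 0.47 and m1403-5p 0.20. With a total of 1000000 assumed the shift was 0.70 and turned 0, as the smallest absolute log2 fold change of the 49 sequences was 1.096. With a pseudocount of 1, leaving out a library gave log2 ratios from -8.79 to -5.85 for miR398a, 2.30 to 4.74 for m1788-5p, -5.55 to -3.18 for miR399f and 1.95 to 4.20 for m1702-3p. No paired analysis was possible because each tissue has 1 pooled column without replicate numbers. A prediction score was not in the table. Values from few reads are limited by depth.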

Other observations

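Some chaperones whose description holds none of the words used above were also among the predicted loci. The terms luminal-binding, endoplasmin, T-complex protein 1 and prefoldin matched 8 such loci. Of these, 5 had a microRNA higher in SAM (62.5%, beside 44.1% of all predicted loci) and 6 one lower (75%, beside 67%). The 8 are no full count of other chaperones, as the calnexin or calreticulin locus given above is not among them. They comprised 5 loci of T-complex subunits, the cytosolic chaperonin, and 1 locus each of BiP, endoplasmin (the Hsp90 of the endoplasmic reticulum) and prefoldin. All 3 loci of the eta subunit had m1702-3p and m1831-5p, higher in SAM. For POPTR_0004s20600 and POPTR_0004s20620 these stood beside miR398a and miR398b, lower in SAM, and for POPTR_0009s15910 beside a lower numbered microRNA. The delta subunit had miR394b-3p and the theta subunit a numbered microRNA, both higher. BiP had miR397a and endoplasmin miR1444b, both lower.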
